A study of Arabidopsis thaliana with 36 samples.

Results

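The 38 genes described here encode subunits of the 26S proteasome, the protease that degrades ubiquitin-tagged proteins, in *Arabidopsis thaliana*. They were chosen by locus from subunit annotation and make up 38 of the 36632 genes counted. Of these, 24 encode the 20S core particle, 13 of them alpha and 11 beta subunits, and 14 encode the 19S regulatory particle, 10 of them RPT ATPases and 4 of them RPN subunits. All 38 passed the filter on low counts and were tested among 20847 genes. Of the 38, 32 had a symbol in RefSeq (TAIR10.1), and the other 6 (AT1G79210, AT4G15165, AT3G26340, AT1G45000, AT5G20000 and AT5G23540) are given by locus.

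RNA-sequencing was done on whole seedlings of *hsfa2* and *cdk8*, T-DNA insertion mutants of the heat stress (HS) transcription factor gene *HSFA2* and of the Mediator kinase gene *CDK8*, and of their Col-0 wild type (WT). Each HS lasted 1 h, at 37 °C. Seedlings of each genotype were heated on day 5 and day 7 (P+T, primed and triggered), on day 7 only (T), on day 5 only (P, primed), or not at all (NHS), and all were harvested together on day 7, so that P samples were 2 days past their HS. With 3 biological replicates in each of the 12 groups there were 36 libraries, each with 29409330 to 31224343 counted read pairs. T and P+T libraries are called heated below, and P and NHS libraries unheated. Each mutant is 1 insertion line. HSFA2 ranged over 630.0 to 1179 CPM (counts per library, scaled to one common total) in heated *hsfa2* libraries, against 2571 to 4983 CPM in heated WT libraries. Heated *cdk8* libraries had 900 to 1491 CPM of HSFA2, a range that overlapped that of *hsfa2*. CDK8 ranged over 3.44 to 7.15 CPM in *cdk8*, against 14.5 to 45.9 CPM in WT. Both mutants thus kept some reads of the mutated gene. The shoot genes LHCB1.3 (21227 to 38653 CPM) and RBCS1A (15723 to 46764 CPM) and the root gene CASP1 (25.6 to 69.2 CPM) were present in all 36 libraries, and the pollen gene VGD1 had 0 counts. The root gene PIN2 had 5.36 to 9.41 CPM in heated libraries, against 24.3 to 34.3 CPM in unheated ones. The other root gene, CASP1, differed less, with a mean of 33.7 CPM at T and 54.2 CPM at NHS in WT. On this CPM scale the median log2 fold change of all genes between T and NHS in WT was −0.82. The part of a shift in tissues in the results below was not tested. The seed storage gene CRU3 reached 3155 CPM in *cdk8* libraries, where the lowest was 1.45 CPM, against at most 46.1 CPM in WT. Replicate 1 of P in *cdk8* stood apart in the heat marker HSP101, with 69.7 CPM, against 7.79 and 9.38 CPM in the other P libraries of *cdk8* and at least 11160 CPM in heated libraries. Without it, 0 of the 38 genes were called for P/NHS and 34 rose for P+T/P in *cdk8*, as with it.

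In the 26S proteasome, stacked rings of alpha and beta subunits form the core particle, whose chamber holds the proteolytic sites on the beta subunits, while the alpha rings form the gate. The regulatory particle caps the core. Its ring of RPT ATPases unfolds substrates and opens the gate, and its RPN subunits bind ubiquitin chains, remove them and hold the particle together. In Arabidopsis most subunits are encoded by a pair of paralogous genes. Subunit genes are known to be induced together when the proteasome is overloaded, through the transcription factors NAC53 and NAC78 and a short promoter element with the core TGGGC. HS misfolds proteins, and the proteasome is one of the routes by which they are cleared.

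The promoter element was looked for in the 250 bases upstream of each annotated start, in the TAIR10.1 sequence of RefSeq. TGGGC, on either strand, stood in 17 of the 38 upstream sequences (44.7%), against 22.7% of the 27443 upstream sequences of all genes. It was found in 6 of 13 alpha, 7 of 11 beta, 3 of 10 RPT and 1 of 4 RPN genes, and more than once in 14 of the 38, against 12.5% of all genes. When the 50 bases after the start were included, 23 of the 38 (60.5%) held TGGGC, against 26% of all genes. A pair of HS element units, TTCNNGAA or GAANNTTC, stood in 4 of the 38 upstream sequences (10.5%), against 16.1% of all genes, and the form with 3 units in a row in 0 of 38, against 0.386% of all genes. The upstream sequences of 6 genes on which the results below turn are shown, with TGGGC, or GCCCA where it lies on the other strand, in capitals. PBC2 and PBG1 had the highest log2 fold change (log2FC) for T/NHS in WT, PBC1 is the paralogue of PBC2, PBA1 is catalytic, RPT2A did not pass the test, and AT4G15165 fell.
PBC2 (chr1:29095770-29096019, plus strand): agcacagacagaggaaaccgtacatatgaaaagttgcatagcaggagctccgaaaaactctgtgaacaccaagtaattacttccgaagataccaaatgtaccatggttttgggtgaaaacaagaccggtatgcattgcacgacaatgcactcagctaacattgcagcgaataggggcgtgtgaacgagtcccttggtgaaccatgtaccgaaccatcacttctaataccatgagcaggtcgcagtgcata
PBC1 (chr1:7625932-7626181, plus strand): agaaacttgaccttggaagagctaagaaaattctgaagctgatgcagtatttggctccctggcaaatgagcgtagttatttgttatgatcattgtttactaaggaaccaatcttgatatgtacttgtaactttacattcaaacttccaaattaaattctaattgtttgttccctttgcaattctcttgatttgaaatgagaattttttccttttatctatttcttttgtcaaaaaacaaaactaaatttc
PBG1 (chr1:21141383-21141632, plus strand): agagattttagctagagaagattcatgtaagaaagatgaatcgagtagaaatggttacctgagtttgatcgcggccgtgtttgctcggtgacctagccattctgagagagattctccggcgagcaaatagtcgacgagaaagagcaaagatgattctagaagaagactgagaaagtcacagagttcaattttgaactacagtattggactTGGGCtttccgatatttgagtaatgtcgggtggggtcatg
PBA1 (chr4:15188494-15188743, plus strand): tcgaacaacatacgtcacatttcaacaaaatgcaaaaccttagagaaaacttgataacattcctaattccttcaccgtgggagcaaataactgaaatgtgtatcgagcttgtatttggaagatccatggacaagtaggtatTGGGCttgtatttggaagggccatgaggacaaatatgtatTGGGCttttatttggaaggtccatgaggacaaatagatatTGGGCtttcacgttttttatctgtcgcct
RPT2A (chr4:14312033-14312282, plus strand): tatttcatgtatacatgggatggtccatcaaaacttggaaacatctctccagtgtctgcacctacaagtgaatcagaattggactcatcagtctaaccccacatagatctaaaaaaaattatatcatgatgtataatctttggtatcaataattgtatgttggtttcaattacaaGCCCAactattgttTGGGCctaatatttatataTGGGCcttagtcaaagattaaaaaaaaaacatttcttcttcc
AT4G15165 (chr4:8648582-8648831, plus strand): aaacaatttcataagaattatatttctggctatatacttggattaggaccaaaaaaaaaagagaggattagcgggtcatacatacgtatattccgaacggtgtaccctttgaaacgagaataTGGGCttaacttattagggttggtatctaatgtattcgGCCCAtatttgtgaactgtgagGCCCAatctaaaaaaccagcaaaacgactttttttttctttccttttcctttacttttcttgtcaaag
PBC2 had no TGGGC in this window, and neither did its paralogue PBC1. PBA1, RPT2A and AT4G15165 each had 3, and PBG1 had 1. The median T/NHS log2FC in WT was 0.58 over the 17 genes with TGGGC and 0.50 over the 21 without. In *hsfa2* the medians were 0.57 and 0.49, and in *cdk8* 0.46 and 0.50. These are descriptions of the windows and of the medians, with no test.

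The first comparison asked how the subunit genes responded to a first HS on day 7 (T/NHS). Changes are given relative to the median gene, because counts were scaled by the trimmed mean of M values (TMM), which centres the trimmed mean of the log2 ratios between libraries on 0. In WT 35 of the 38 genes rose and 1 fell (on library size alone 1 and 24) at an adjusted p-value under 0.05 (edgeR's quasi-likelihood test, Benjamini-Hochberg adjustment over all genes tested), against 29.9% of all genes tested that rose and 32.5% that fell. The median log2FC of the 38 was 0.54, against −0.05 for all genes. Only PBC2 rose more than 2-fold, and only AT4G15165 fell more than 2-fold. Of all genes tested, 8.68% rose and 17.1% fell past 2-fold. The standard errors (SE) of the 38 log2FC values had a median of 0.10. All 24 core genes passed the test, 23 of them higher (median 0.58), and 12 of the 14 regulatory particle genes rose (median 0.49). The plot of T/NHS log2FC by gene gives all 38 in the 3 genotypes.

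**Figure D1:**
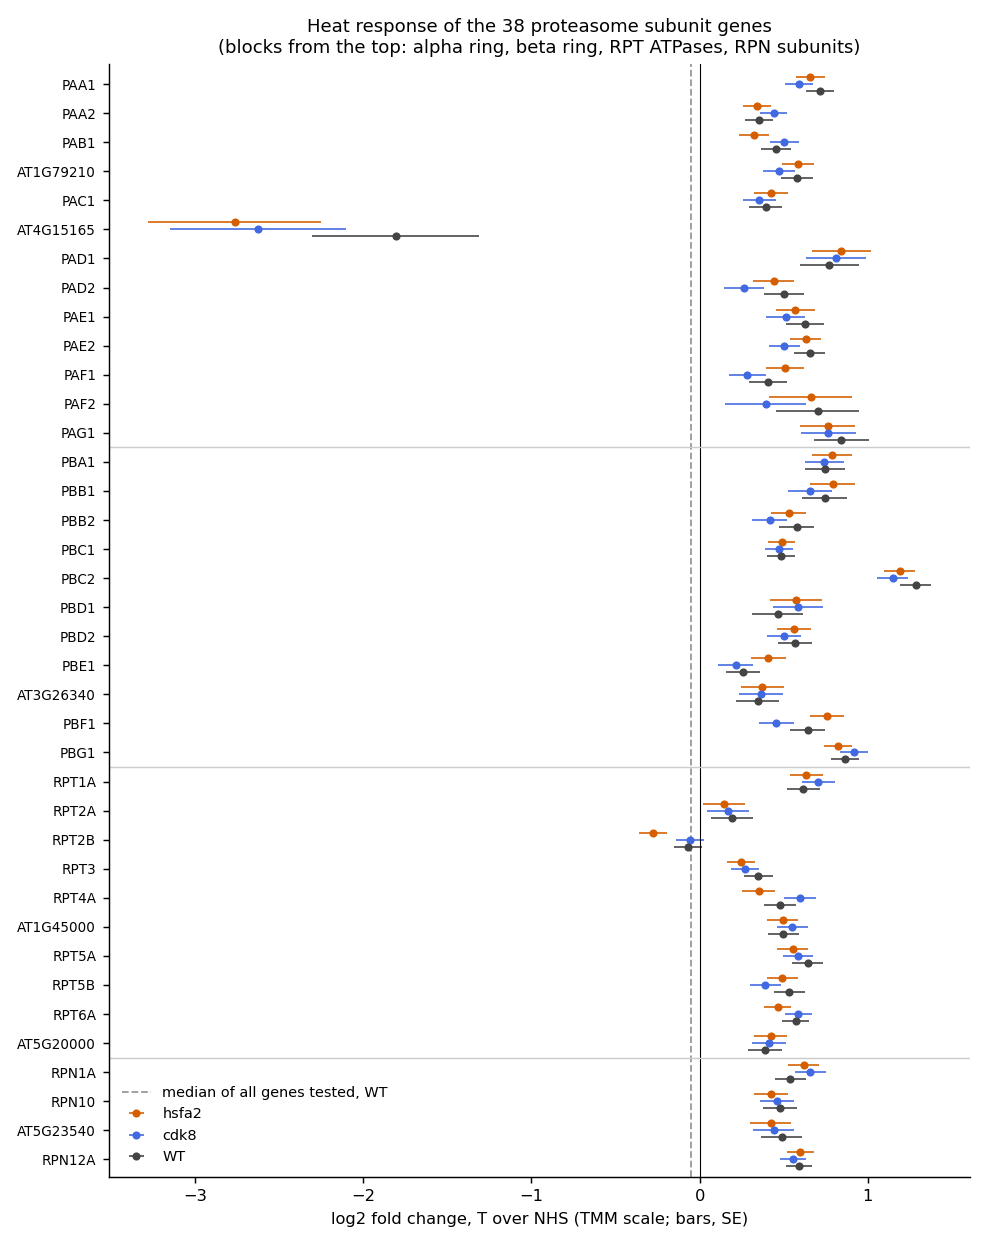
Log2 fold change of the 38 subunit genes for T over NHS in *hsfa2*, *cdk8* and WT, relative to the median gene (TMM scaling), with bars of 1 SE (n = 3 libraries a group). In WT 35 genes lie significantly above 0 and AT4G15165 at −1.81, against a median of all genes of −0.05 (dashed line). On library size alone 1 of the 38 genes rose and 24 fell.

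This direction depends on the scale. When libraries were scaled by their size alone, all genes had a median of −0.82 for T/NHS in WT, a shift of −0.77 from TMM, and 24 of the 38 genes fell and only PBC2 rose (7.00% of all genes rose and 70.0% fell), while the difference between the median of the 38 and that of all genes was 0.58 on either scale. The shifts were −0.78 in *hsfa2* and −0.59 in *cdk8* for T/NHS, and −0.80, −0.63 and −0.75 for P+T/P in *hsfa2*, *cdk8* and WT. The 38 genes together took 0.219 to 0.229% of the counts in heated WT libraries, against 0.251 to 0.266% in unheated WT libraries, so their share of all reads was lower after HS. The 20 most abundant genes took 18.9 to 23.1% of counts in heated libraries and 13.9 to 16.9% in unheated libraries. In whole seedlings, fewer cells of a type and less RNA per cell cannot be told apart. Below, "rose" and "fell" are relative to the median gene under TMM, and under library size alone the rises became falls or did not pass, apart from PBC2 in all 6 comparisons and PBG1 for T/NHS in *cdk8*.

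The alpha subunits form the outer rings of the core. Of the 13 alpha genes, 12 rose after T in WT, with a median log2FC of 0.58. PAG1 (chr2:11528230-11531178) rose most, with 95.1, 92.2 and 127 TMM-scaled CPM at T, against 55.5, 52.8 and 66.7 at NHS. Its 3 T libraries lay above the 3 NHS libraries, although both groups had one high library. This gave a log2FC of 0.84 ± 0.16 (SE). PAD1 had 119.5, 123 and 171 CPM at T, against 73.1, 74.0 and 95 at NHS (log2FC 0.77 ± 0.18). Its paralogue PAD2, encoding the same ring position, had 110.0, 102 and 117 CPM at T, against 73.3, 75.9 and 82.9 at NHS (log2FC 0.50 ± 0.12). The T and NHS libraries did not overlap for either copy. PAA1 had 83.5, 81.9 and 93.5 CPM at T, against 54.8, 51.7 and 51.1 at NHS (log2FC 0.72 ± 0.09). PAA2 changed less, with 55.9, 51.1 and 50.9 CPM at T, against 43.8, 42.5 and 37.2 at NHS (log2FC 0.35 ± 0.08). The other 7 alpha genes that rose did so by log2FC 0.39 to 0.70. The call of PAF2, at 0.70, was lost without replicate 1 of NHS (adjusted p of edgeR up to 0.116 when 1 library was left out) or replicate 2 of T.

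AT4G15165 (chr4:8648832-8650382), whose nearest copy is PAC1 with 84.5% identity of the coding sequence, was the 1 subunit gene that fell in all 6 heat comparisons. It was also the least abundant, with 0 to 43 counts per library. In WT it had 0, 4 and 5 counts at P+T, 3, 3 and 4 at T, 34, 32 and 21 at P and 16, 21 and 24 at NHS. No heated library reached any unheated one. The summed counts were 10 at T and 61 at NHS, a ratio on the TMM scale of 0.280 (exact 95% interval 0.128 to 0.551, for counting error only), and 9 at P+T and 87 at P, a ratio of 0.177 (0.0783 to 0.352). In *hsfa2* the ratios were 0.142 for T/NHS and 0.117 for P+T/P, and in *cdk8* 0.155 and 0.171. The fitted log2FC for T/NHS in WT was −1.81 ± 0.50. PAC1, the most abundant of the 38 genes at a mean of 177 TPM (transcript abundance per kb of exon, scaled to one total in every library), rose with log2FC 0.39 ± 0.10, and supplied 99.8 to 100% of the pair's reads per kb of exon in heated WT libraries, and 99.0 to 99.6% in unheated WT libraries.

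The beta subunits form the inner rings, and those encoded by PBA, PBB and PBE genes carry the caspase-like, trypsin-like and chymotrypsin-like sites. All 11 beta genes rose after T in WT, with a median log2FC of 0.58 and a range of 0.26 to 1.29. PBA1, the 1 gene for the caspase-like subunit, had 132, 153 and 163 CPM at T, against 93.0, 85.6 and 88.5 at NHS (log2FC 0.75 ± 0.12). The trypsin-like subunit genes also rose. PBB1 had 118, 124 and 155 CPM at T, against 76.8, 74.1 and 86.3 at NHS (log2FC 0.74 ± 0.13). PBB2 had 54.0, 55.5 and 62.5 CPM at T, against 39.6, 35.3 and 40.3 at NHS (log2FC 0.58 ± 0.10). The T and NHS libraries of these 3 genes did not overlap. PBE1, for the chymotrypsin-like subunit, and its copy AT3G26340 (87.7% identity of the coding sequence) had the lowest log2FC among the beta genes. PBE1 had 91.9, 95.9 and 108 CPM at T, against 78.9, 76.4 and 91.8 at NHS (log2FC 0.26 ± 0.10), and AT3G26340 had 9.69, 10.7 and 10.9 CPM at T, against 6.77, 9.72 and 8.15 at NHS (log2FC 0.34 ± 0.13). Highest NHS and lowest T libraries of both genes lay close together, and overlapped for AT3G26340. Leaving out single libraries ended the call of PBE1 without replicate 1 or 2 of NHS or replicate 3 of T (highest adjusted p of edgeR 0.155), and that of AT3G26340 without replicate 1 or 3 of NHS or replicate 2 or 3 of T (highest 0.167). That of PBD1 (0.47) ended without replicate 2 of NHS (0.0525).

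The non-catalytic beta subunit genes PBC2 (chr1:29096020-29098494) and PBG1 (chr1:21141633-21144458) had the highest log2FC of the 38 for T/NHS in WT. PBC2 had 42.4, 42.1 and 42.0 CPM at T, against 17.0, 18.5 and 16.4 at NHS. All T libraries were more than 2-fold above all NHS libraries, and the log2FC was 1.29 ± 0.09 (95% interval 1.10 to 1.47, adjusted p 3.28e-13 by edgeR). Its paralogue PBC1, which encodes the same ring position, had 62.5, 65.3 and 67.5 CPM at T, against 46.3, 47.6 and 45.7 at NHS, and a log2FC of 0.48 ± 0.08. PBG1, which has no paralogue among the 38, had 118, 119 and 116 CPM at T, against 68.1, 65.1 and 61.3 at NHS (log2FC 0.86 ± 0.08).

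The RPT genes encode the ATPases that sit on the alpha ring. Of the 10, 8 rose after T in WT, by log2FC 0.35 to 0.64, and the 2 that did not pass the test were both copies of the RPT2 position, an ATPase whose tail opens the gate in yeast. RPT2A, whose loss disturbs the root meristem, had 97.3, 102 and 120.1 CPM at T, against 86.9, 92.9 and 99.4 at NHS. These ranges overlapped (log2FC 0.19, 95% interval −0.07 to 0.45, adjusted p 0.189 by edgeR). RPT2B had 23.8, 25.9 and 25.7 CPM at T, against 25.4, 27.1 and 26.5 at NHS, also with overlap (log2FC −0.07, 95% interval −0.24 to 0.10, adjusted p 0.485). The interval of RPT2A included values at which other subunit genes passed the test. In *hsfa2* RPT2B fell, with 21.8, 20.6 and 20.9 CPM at T, against 23.7, 26.9 and 26 at NHS, and these libraries did not overlap (log2FC −0.28 ± 0.08, adjusted p 0.00534 by edgeR). The difference from WT in this response was not significant (interaction log2FC −0.21, 95% interval −0.45 to 0.03).

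All 4 RPN genes rose after T in WT, with a median of 0.51, and the T and NHS libraries of each did not overlap. RPN1A, a scaffold of the base that docks carriers of ubiquitin-tagged proteins, had 162, 159 and 188 CPM at T, against 114, 121 and 115 at NHS (log2FC 0.54 ± 0.09). RPN10, a ubiquitin receptor, had 87.4, 92.7 and 106 CPM at T, against 69.7, 68.4 and 67.4 at NHS (log2FC 0.48 ± 0.10). AT5G23540, a Mov34/MPN/PAD-1 family protein, had 94.5, 92.2 and 109 CPM at T, against 74.1, 68.8 and 68.1 at NHS (log2FC 0.49 ± 0.12). RPN12A, a lid subunit, had 51.5, 50.6 and 52.0 CPM at T, against 36.1, 34.3 and 31.9 at NHS (log2FC 0.59 ± 0.08). 

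Most of the 38 genes also rose in both mutants and after a second HS, relative to the median gene. For T/NHS 35 of the 38 genes rose and 2 fell in *hsfa2* (29.9% and 31.6% of all genes), with a median of 0.52, and 32 rose and 1 fell in *cdk8* (29.2% and 30.2%), with a median of 0.49. For P+T/P, a comparison that shares no library with T/NHS, 32 rose and 1 fell in *hsfa2* (30.2% and 32.2% of all genes, median 0.47), 34 rose and 1 fell in *cdk8* (29.9% and 33.7%, median 0.52), and 34 rose and 1 fell in WT (30.4% and 34.2%, median 0.54). The medians of all genes lay between −0.06 and −0.02. The gene that fell was AT4G15165 each time, with RPT2B as the other one in *hsfa2*. In each of these comparisons 1 gene, PBC2, rose and 1, AT4G15165, fell past 2-fold. The shares of all genes past 2-fold were 8.97% and 15.9% for T/NHS in *hsfa2*, 7.53% and 15.9% in *cdk8*, 9.45% and 16.2% for P+T/P in *hsfa2*, 7.85% and 17.9% in *cdk8*, and 9.73% and 17.6% in WT. In both T/NHS and P+T/P, 32 genes rose in *hsfa2*, 32 in *cdk8* and 34 in WT. Over all 6 comparisons, 30 genes rose in each, 3 (AT4G15165, RPT2A and RPT2B) in none and 5 (AT3G26340, PAD2, PAF2, PBE1 and RPT4A) in some. The shares of all genes tested that rose in both comparisons of a genotype, or in all 6, were not counted. RPT2A had 97.9, 93.5 and 129 CPM at P+T, against 80.3, 91.2 and 101 at P in WT, and its log2FC of 0.24 ± 0.13 (adjusted p 0.101 by edgeR) passed the test when the replicate number was a block (0.23, adjusted p 0.0269).

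Some of the smaller rises rested on single libraries, and all kept their sign without them. For T/NHS in *hsfa2* the call of PAF2 was lost without replicate 3 of T or of NHS (highest adjusted p of edgeR 0.131), that of AT3G26340 without replicate 2 of T (0.105) and that of RPT3 without replicate 2 or 3 of T (0.0606). In *cdk8* those of PAF1 and AT3G26340 were lost without replicate 1 of NHS, and that of PAF1 also without replicate 2 of NHS or T (highest 0.199 and 0.0746). For P+T/P the call of AT5G20000 was lost in *hsfa2* without replicate 2 of P or 3 of P+T (0.0970), in *cdk8* without replicate 3 of P or 2 of P+T (0.112) and in WT without replicate 1 of P (0.0529). In *hsfa2* the calls of PAC1 (without replicate 3 of P+T, 0.0619), RPN1A (without replicate 1 of P, 0.0546) and AT5G23540 (without replicate 2 of P or 2 or 3 of P+T, highest 0.146) were also lost, and in *cdk8* that of RPT3 (without replicate 3 of P or 2 of P+T, highest 0.0944). With only the groups compared in the fit, the calls of RPT3 for T/NHS in *hsfa2* (0.0617), of PAC1 (0.0952), PAF1 (0.166), AT3G26340 (0.0598) and RPT3 (0.127) for T/NHS in *cdk8*, of AT3G26340 for T/NHS in WT (0.0512) and of AT5G20000 for P+T/P in *hsfa2* (0.0543) were lost. PAF1 in *cdk8* was also lost among genes of at least 1 CPM on average (0.0503), and PBE1 for T/NHS in WT with no filter (0.0640). The count of 30 genes that rose in all 6 comparisons holds for the fit on all groups, and RPT3, PAC1, PAF1 and AT5G20000 are among the 30.

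Under library size alone, only PBC2 rose and 24 genes fell for T/NHS in *hsfa2* (6.99% and 70.2% of all genes), PBC2 and PBG1 rose and 9 fell in *cdk8* (7.79% and 61.2%), and for P+T/P only PBC2 rose while 28 fell in *hsfa2* (7.29% and 71.8%), 13 in *cdk8* (7.89% and 62.9%) and 18 in WT (8.15% and 68.6%). The medians of the 38 were −0.26 and −0.10 for T/NHS in *hsfa2* and *cdk8*, −0.34, −0.11 and −0.22 for P+T/P in *hsfa2*, *cdk8* and WT, and −0.24 for T/NHS in WT. The share of counts taken by the 38 genes was 0.197 to 0.219% in heated *hsfa2* libraries, against 0.241 to 0.262% in unheated ones. In *cdk8* it was 0.247 to 0.279% in heated libraries, against 0.265 to 0.292% in unheated ones, so that the ranges overlapped there.

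**Figure D2:**
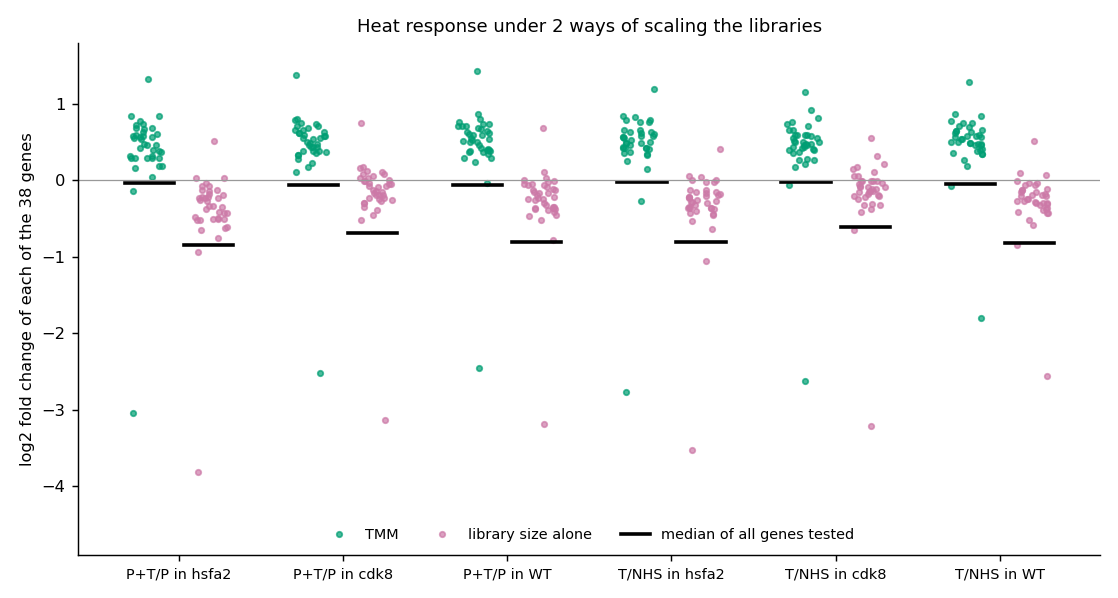
Log2 fold change of each of the 38 subunit genes in the 6 comparisons of heated with unheated libraries, under TMM and under library size alone, with the median of all genes tested as a black bar. Under TMM most genes lie above 0 and under library size alone most lie below 0, for T/NHS in WT with medians of 0.54 and −0.24, but on both scales most lie above the median of all genes.

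PBC2 separated heated from unheated libraries in all 3 genotypes. It had 38, 42.8 and 35.9 CPM at T in *hsfa2*, against 17.5, 16.7 and 17.0 at NHS. In *cdk8* it had 40.6, 47.9 and 38.7 at T, against 19.5, 16.9 and 21.0 at NHS. After the second HS PBC2 had 42.7, 41.9 and 48.7 CPM in *hsfa2*, 46.2, 48.6 and 47.9 in *cdk8* and 48.4, 48.4 and 54.1 in WT. The matching P libraries had 18.2, 17.0 and 18.2 in *hsfa2*, 19.1, 19.1 and 16.6 in *cdk8* and 17.9, 18.8 and 19.2 in WT. All 18 heated libraries were above all 18 unheated ones. PBA1 also rose after the second HS, but by less than 2-fold, with 152, 148 and 172 CPM at P+T, against 80.8, 88.7 and 89.1 at P in WT (log2FC 0.87 ± 0.12). Unlike PBC2, it was not called higher on library size alone. RPN1A had a smaller change after the second HS, with 150.4, 141 and 143 CPM at P+T, against 119.6, 124 and 112 at P in WT (log2FC 0.29 ± 0.09).

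**Figure D3:**
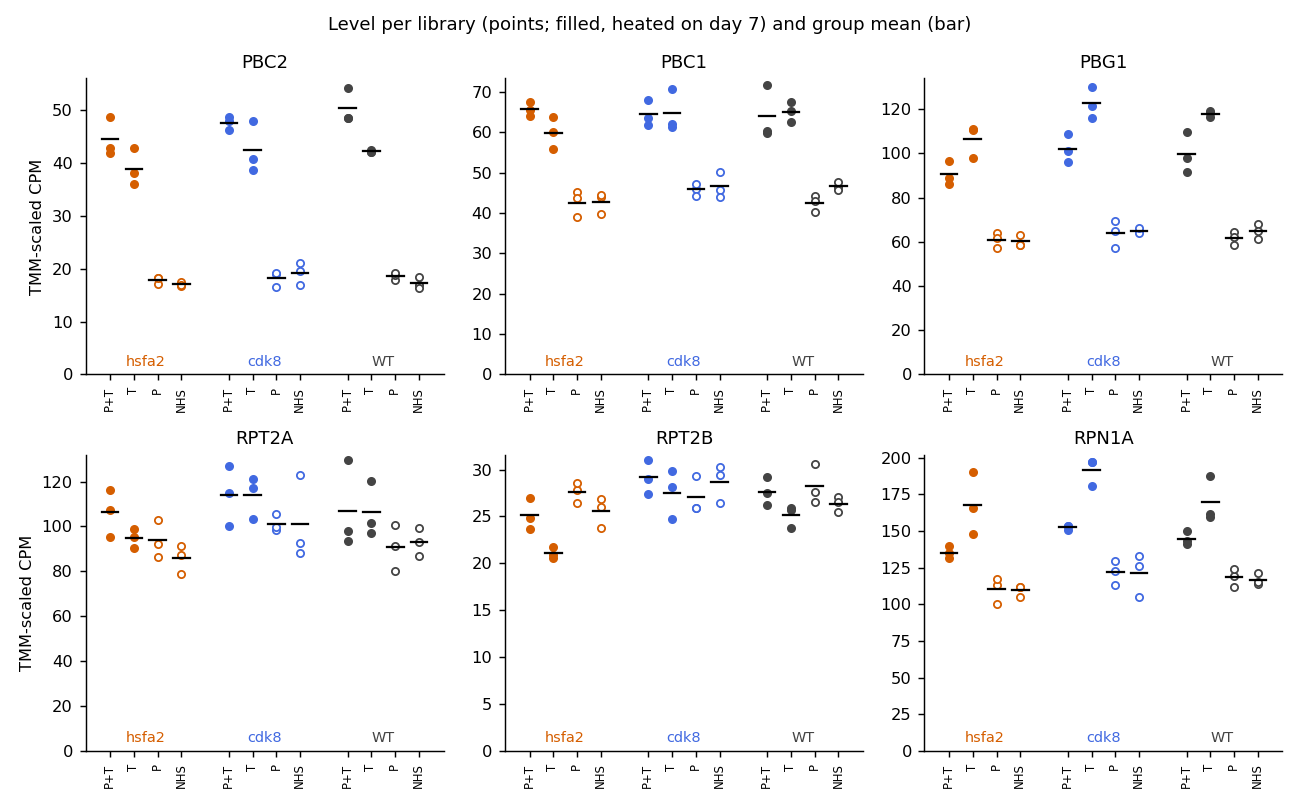
TMM-scaled CPM of PBC2, PBC1, PBG1, RPT2A, RPT2B and RPN1A in each library, by genotype and treatment, with filled points for libraries heated on day 7 and a bar at the mean of 3. PBC2 lies at 35.9 to 54.1 CPM in the heated libraries and 16.4 to 21.0 CPM in the unheated ones, while the heated and unheated libraries of RPT2A and RPT2B overlap. On library size alone only PBC2 of these genes rose for T/NHS in WT.

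Levels of the subunits were compared in TPM, which corrects for exon length. The means over the 36 libraries ran from 177 TPM for PAC1, 156 for PBA1, 133 for both PBF1 and RPT3 and 131 for RPT5A down to 11.9 for AT3G26340, 9.26 for PBD1, 2.84 for PAF2 and 0.863 for AT4G15165. When the copies of a subunit were summed, 20 positions (14 of the core and 6 ATPases) remained. The most abundant position exceeded the least abundant one by 4.59 to 6.14-fold within a heated WT library and 5.01 to 5.99-fold within an unheated one. In WT the PAD position had 235 ± 19.2 TPM at T and 266 ± 27.3 TPM at NHS (SD, n = 3 each), and the lowest position, PBD, 41.5 ± 1.5 TPM at T and 49.8 ± 1.54 TPM at NHS. TPM values sum to the same total in every library, so these differences between T and NHS carry the scale of library size.

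Ratios within a library do not depend on how libraries are scaled. The geometric mean of the 14 core positions divided by that of the 6 ATPase positions was 1.11 to 1.17 in heated *hsfa2* libraries, against 0.922 to 0.994 in unheated ones. It was 1.03 to 1.14 in heated *cdk8* libraries, against 0.929 to 1.06 in unheated ones, and 1.08 to 1.13 in heated WT libraries, against 0.933 to 1.02 in unheated ones. The ranges were apart in *hsfa2* and WT and overlapped in *cdk8*. Relative to the mean of the 20 positions, the RPT2 position was lower in heated than in unheated WT libraries by −0.41 on the log2 scale, PBE by −0.23, RPT3 by −0.20 and PAC by −0.19, while PBC was higher by 0.24 and PBA by 0.23, each with ranges that did not overlap over 6 libraries a side. PAG (0.24) and PBG (0.20) were higher with ranges that overlapped. These ratios are given as a description, without a test.

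In 14 cases both copies of a position were among the 38, with 80.7 to 94.4% identity of their coding sequences and no shared stretch of 150 bases, the read length, so that a read of full length matches only one copy without mismatch. Separately, 14 of the 38 genes overlap another gene, PBB1 and RPT3 on the same strand. The others, among them PBG1, PBB2, PAD2, AT5G23540 and RPN12A, overlap a gene on the other strand. Reads in such overlaps may be shared with the neighbour or lost, and the strand setting of the counts is not known. The share of a copy in the pair's reads per kb of exon was also free of the scaling. PBC1 supplied 61.7, 62.9 and 63.7% of the pair at T and 57.5, 57.6 and 59.1% at P+T in WT, against 71.1, 72.0 and 70.9% at P and 74.9, 73.8 and 75.3% at NHS. Its mean share was thus 60.4% in heated WT libraries, against 73.0% in unheated ones, a difference of −12.6 percentage points, with the remainder taken by PBC2. The shares were 62.2% in heated and 72.7% in unheated *hsfa2* libraries, and 61.1% in heated and 73.0% in unheated *cdk8* libraries, and heated and unheated libraries were apart in all 3 genotypes. PAA1 supplied 68.5% of its pair in heated WT libraries, against 62.8% in unheated ones (range 65.9 to 70.4%, against 61.1 to 64.5%). PAD1 supplied 51.9%, against 47.6%, and these ranges overlapped (48.4 to 55.8%, against 45.7 to 50.4%). The mean share of PAA1 changed by 5.15 percentage points in *hsfa2* and 3.36 in *cdk8*, and that of PAD1 by 4.70 and 7.34. In the other 11 pairs the mean share in WT changed by −2.96 to 2.80 percentage points. Among these, RPT6A supplied 64.0 to 65.6% in heated WT libraries, against 61.5 to 63.4% in unheated ones. The ranges of RPT6A were apart in WT and overlapped in both mutants. Those of PAC1, given above for WT, were apart in all 3 genotypes. RPT2A had ranges that were apart only in *hsfa2*, with 80.7 to 83.8% in heated and 78.0 to 79.7% in unheated libraries.

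**Figure D4:**
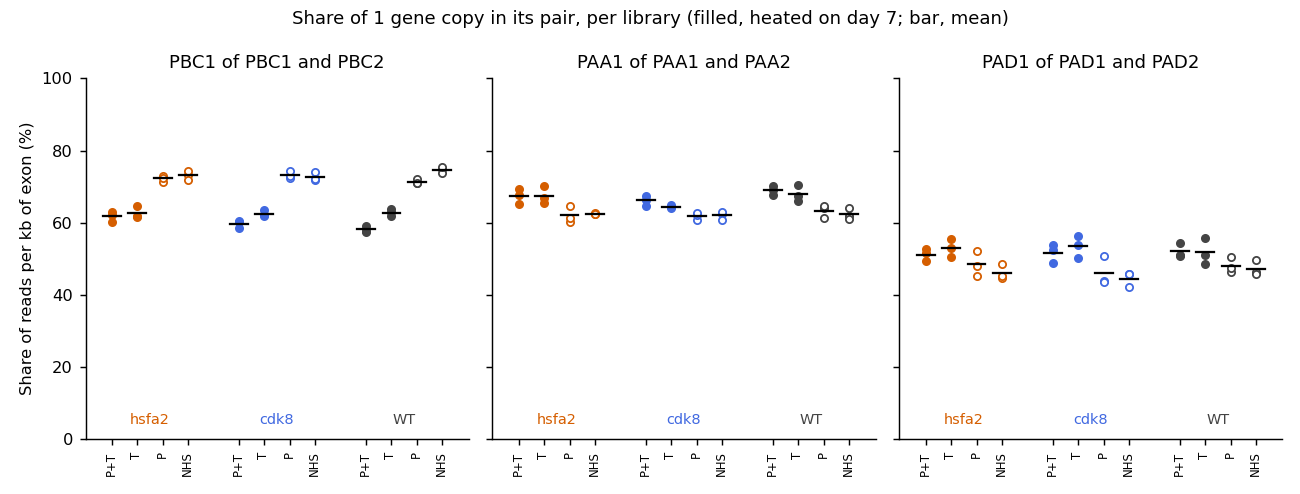
Share of PBC1, PAA1 and PAD1 in the reads per kb of exon of their pair, in each library, by genotype and treatment, with filled points for libraries heated on day 7 and a bar at the mean of 3. For PBC1 the highest heated WT library is at 63.7% and the lowest unheated WT library at 70.9%, whereas the heated and unheated WT libraries of PAD1 overlap.

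Priming alone left no difference 2 days later that passed the test. For P/NHS 0 of the 38 genes were called in *hsfa2*, *cdk8* or WT, against 0.0144%, 0.0288% and 0.494% of all genes (edgeR). At an unadjusted p under 0.05 the count was also 0 in each genotype, and DESeq2 called 0 as well, with 26 of the 38 adjusted p-values not given by DESeq2 in *cdk8*. The smallest adjusted p of edgeR was 0.899. PBC2 had 17.9, 18.8 and 19.2 CPM at P, against 17.0, 18.5 and 16.4 at NHS in WT, and PBA1 80.8, 88.7 and 89.1, against 93.0, 85.6 and 88.5. Without AT4G15165, the 95% intervals of the log2FC of the other 37 genes lay between −0.34 and 0.90 in *hsfa2*, −0.39 and 0.61 in *cdk8*, and −0.58 and 0.42 in WT.

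A second HS was compared with a first one on the same day (P+T/T), the comparison by which the study looked for memory of the first HS. It shares its T libraries with T/NHS and its P+T libraries with P+T/P. In *hsfa2* 0 genes rose and RPN1A fell (4.76% and 2.87% of all genes), in *cdk8* 0 rose and RPN1A and PBG1 fell (5.96% and 4.23%), and in WT PBC2 rose and PBG1 fell (9.66% and 7.01%). By DESeq2, RPT2B rose in *hsfa2*, 0 rose in *cdk8* and 1 in WT. At an unadjusted p under 0.05 edgeR counted 3 higher in *hsfa2* and 0 in *cdk8*. RPN1A had 135, 131 and 139.5 CPM at P+T in *hsfa2*, against 148, 166 and 191 at T (log2FC −0.31 ± 0.09). In *cdk8* RPN1A had 154, 153 and 151 CPM at P+T, against 181, 197 and 197 at T (−0.33 ± 0.09). In WT it had 150.4, 141 and 143 CPM at P+T, against 162, 159 and 188 at T (−0.23 ± 0.09, adjusted p 0.0963 by edgeR). The P+T and T libraries of RPN1A did not overlap in any genotype. PBG1 had 101, 109 and 96.2 CPM at P+T in *cdk8*, against 116, 130.2 and 122 at T (log2FC −0.26 ± 0.08). In WT PBG1 had 91.5, 109.6 and 97.7 CPM at P+T, against 118, 119 and 116 at T (−0.24 ± 0.08), and in *hsfa2* 86.3, 88.7 and 96.8 against 98.0, 111 and 110.5 (−0.23 ± 0.08, not called). The P+T libraries of PBG1 lay below the T libraries in all 3 genotypes. PBC2 had 48.4, 48.4 and 54.1 CPM at P+T in WT, against 42.4, 42.1 and 42.0 at T (log2FC 0.25 ± 0.09). RPT2B in *hsfa2* had 24.8, 23.7 and 26.9 CPM at P+T, against 21.8, 20.6 and 20.9 at T, and its log2FC of 0.26 ± 0.09 (adjusted p 0.0634 by edgeR) passed the test when the replicate number was a block (0.25, adjusted p 0.0470).

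These calls were close to the threshold. PBC2 in WT (adjusted p 0.0492 by edgeR) was not called when any 1 of the 6 libraries was left out, with adjusted p-values of 0.0554 to 0.212. The call of PBG1 in WT (0.0402) was lost in 5 of 6 such fits, with adjusted p-values of 0.0138 to 0.209, and kept without replicate 2 of P+T. RPN1A lost its call in 5 of 6 fits in *hsfa2* (0.0338, over the fits 0.00975 to 0.300) and in *cdk8* (0.0191, over the fits 0.0207 to 0.0859), and kept it without replicate 1 of T. PBG1 in *cdk8* (0.0367) was also lost in 5 of 6 fits (0.0342 to 0.166) and kept without replicate 2 of P+T, while in *hsfa2* it was gained without replicate 1 of T (0.0417). The log2FC kept its sign for each of these genes whichever library was left out.

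The mutants were then compared with WT at each treatment, both with the same WT libraries. In *hsfa2* 0 of the 38 genes differed from WT at P+T, T, P or NHS, against 6.51%, 0.153%, 0.307% and 0.0192% of all genes (edgeR). In *cdk8* 0 differed at P+T, T, P or NHS, against 18.4%, 22.2%, 6.38% and 7.00% of all genes. DESeq2 also called 0 in each of the 8 comparisons. At an unadjusted p under 0.05, 2 genes were lower in *hsfa2* at P+T, 3 at T and 0 at P and NHS, and 0 were higher in *cdk8* at P+T and 1 each at T, P and NHS. The median log2FC of the 38 genes in *hsfa2* against WT was −0.11 at P+T, −0.14 at T, −0.05 at P and −0.10 at NHS. The medians of all genes there were 0.03, 0.01, −0.01 and −0.004. In the same order, the log2FC of the 37 genes other than AT4G15165 ran from −0.32 to 0.08, −0.25 to 0.02, −0.21 to 0.39 and −0.20 to 0.02. In *cdk8* the median of the 38 was 0.03, 0.02, 0.04 and 0.06 at P+T, T, P and NHS. For all genes it was 0.02, 0.03, −0.01 and −0.005. The 95% intervals of the 37 genes other than AT4G15165 lay between −0.57 and 0.58 at P+T and −0.65 and 0.37 at T for *hsfa2*, and between −0.31 and 0.88 at P+T and −0.60 and 0.47 at T for *cdk8*. A difference of 2-fold in either direction was outside these limits at P+T and T for the 37 genes.

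**Figure D5:**
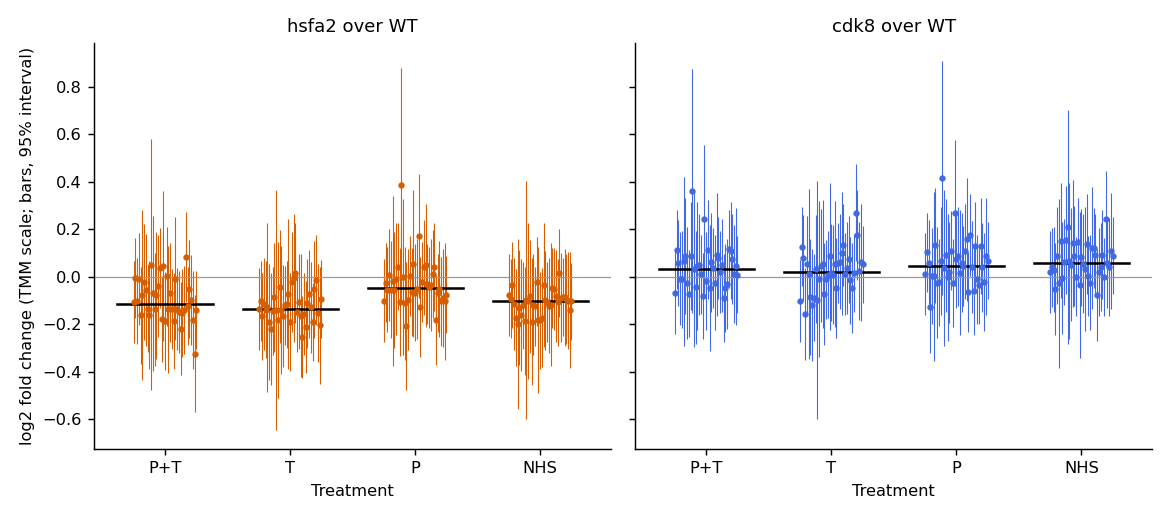
Log2 fold change of the 37 subunit genes other than AT4G15165 in *hsfa2* and *cdk8* over WT at each treatment, with 95% intervals as thin lines and the median as a black bar. No gene passes the adjusted test, and the medians of all 38 lie between −0.14 (*hsfa2* at T) and 0.06 (*cdk8* at NHS).

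The gene nearest the threshold was AT5G20000 (chr5:6756633-6759800), which lies next to its copy RPT6A (chr5:6751798-6755315) and shares 94.4% of the coding sequence with it. It had 31.7, 37.8 and 38.4 CPM at T in *cdk8*, against 28.0, 28.9 and 32.6 in WT, and the lowest *cdk8* library lay below the highest WT library. Its log2FC was 0.27 ± 0.10 (adjusted p 0.0503 by edgeR). With the replicate number as a block the adjusted p was 0.0303, without replicate 1 of *cdk8* or replicate 3 of WT it was also under 0.05 (0.0264 to 0.180 over the 6 libraries left out), and with only genes of at least 1 CPM on average it was 0.0498. At NHS it had 26.7, 29.2 and 25.1 CPM in *cdk8*, against 23.6, 22.5 and 22.2 in WT, without overlap (log2FC 0.24 ± 0.10). Under library size alone 23 of the 38 genes were higher in *cdk8* than in WT at T (31.3% of all genes) and 11 at P+T (18.9%), where the median of all genes also moved by 0.23 and 0.17. The seed storage gene CRU3 had 228 to 3155 CPM in *cdk8* libraries at T, against 0.0336 to 46.1 CPM in WT libraries at T, and its part in the comparisons with *cdk8* was not tested.

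Whether the response to HS itself differed from WT was tested by interaction. For *hsfa2* 0 of the 38 genes had a significant interaction with P+T/P, P+T/T or T/NHS (1.81%, 1.20% and 0.00480% of all genes), and for *cdk8* 0 had one (4.82%, 0.739% and 4.30% of all genes). The count at an unadjusted p under 0.05 was 0 in all 6 cases, DESeq2 called 0, and the smallest adjusted p of edgeR was 0.550. For PBC2 the interaction of *cdk8* with T/NHS was −0.14 (95% interval −0.40 to 0.12), and that of *hsfa2* was −0.10 (−0.36 to 0.17). Without TMM factors, the all-gene median moved by 0.18 and 0.12 in the interactions of *cdk8* with T/NHS and P+T/P.

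Other genes of the pathway were taken from a fixed list of 43, of which 41 were tested. Of the remaining subunits and copies of the regulatory particle, 13 of 17 rose and 1 fell after T in WT relative to the median gene (29.9% and 32.5% of all genes), where a log2FC of less than the shift of 0.77 turns negative on library size alone. The highest log2FC among the 17 was that of ATS9, which encodes the lid subunit RPN6, with 388, 388 and 385 CPM at T, against 99.5, 92.9 and 93.5 at NHS (log2FC 2.02 ± 0.09). AT1G75990 fell (−0.36 ± 0.09). Of 6 assembly factors and regulators, 4 rose and the other 2 did not pass the test. NAC2, also named ANAC078, had 191, 202 and 189 CPM at T, against 36.3, 32.3 and 32.5 at NHS (log2FC 2.53 ± 0.08), while NAC053 changed by 0.33 ± 0.10. Of 18 genes for ubiquitin, its activation and the delivery of substrates, 16 rose. The polyubiquitin genes UBQ14 (4.35 ± 0.18) and UBQ10 (2.69 ± 0.13) and AtCDC48B (5.12 ± 0.13), an ATPase that extracts ubiquitin-tagged proteins, rose by more than any of the 38. ATS9 and AT1G75990 were singled out after their values were seen, the other genes by a rule.

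Some of these genes differed between a mutant and WT. The shares of all genes that differed, in either direction, were 22.2% for *cdk8* at T, 18.4% for *cdk8* at P+T and 6.51% for *hsfa2* at P+T, and 3 of 17 is near the first of these. At T in *cdk8*, 3 of the 17 other regulatory particle genes were higher, 2 of the 6 assembly factors and regulators were lower and 1 higher, and 6 of the 18 ubiquitin genes were lower and 1 higher. At P+T in *cdk8*, 1 of the 17 was higher, 2 of the 6 were lower and 6 of the 18 were lower. In *hsfa2* at P+T, 2 of the 17 were lower, 1 of the 6 was higher, and 3 of the 18 were lower and 2 higher. In *cdk8* at T, NAC2 had 111, 116 and 101 CPM, against 191, 202 and 189 in WT (log2FC −0.83 ± 0.08, adjusted p 1.92e-09 by edgeR). NAC053 was also lower (−0.50 ± 0.10), as were UBQ14 (−1.26 ± 0.16), UBQ10 (−1.08 ± 0.12) and AtCDC48B (−0.90 ± 0.11). The interaction of *cdk8* with T/NHS was significant for NAC2 (−0.73 ± 0.11), UBQ14 (−2.19 ± 0.23), UBQ10 (−0.98 ± 0.17) and AtCDC48B (−1.29 ± 0.16). For UBQ14 and AtCDC48B the interaction was larger than the difference from WT at T. Part of it thus lay in a higher fitted level in *cdk8* than in WT at NHS. In *hsfa2* at P+T, NAC2 (0.52 ± 0.08), UBQ14 (0.94 ± 0.16) and AtCDC48B (0.77 ± 0.11) were higher than in WT.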

How the data were processed

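The authors heated and harvested whole seedlings, prepared poly(A) libraries (DNBseq, paired reads of 150 bases), aligned reads to TAIR10 with STAR 2.7.10a and deposited the raw read counts per gene, 1 file per library. STAR reports counts for 3 strand settings, and which of them the deposited column holds is not given in the sources used here. The 38 members and all lists were chosen with earlier results of these data known.

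All 36632 gene IDs matched TAIR10.1 of RefSeq, which gave names, positions, exon lengths and the sequences upstream of starts. The filter on low counts (filterByExpr, min.count 10 and min.total.count 15) left 20847 genes, all 38 members among them. One model of 12 groups was fitted with TMM factors and edgeR 4.0.16 (R 4.3.3, limma 3.58.1) by quasi-likelihood, and p-values were adjusted over all 20847 genes by Benjamini-Hochberg. A gene was called at an adjusted p under 0.05. SE values were taken from the log2FC and the F statistic. For 26 comparisons the same model gave contrasts, interactions included. TPM were computed from counts and exon lengths. Tables and plots were made in Python 3.11.15 with numpy 2.4.6, pandas 2.3.3 and matplotlib 3.10.9.

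Depth was 29409330 to 31224343 counted pairs per library, and counting error weighs most on the genes with the fewest counts per library: AT4G15165 (0 to 43), PAF2 (40 to 113) and PBD1 (121 to 207). The samples are labelled as biological replicates, and replicate pairs differed by more than counting noise (36 pairs, with chi-square values of 6.47 to 57.6 times their degrees of freedom). Tested on simulated data for T/NHS in WT, the procedure recovered 52.5% of 200 genes changed 1.5-fold (20351 genes) and 96% of 200 changed 2-fold (20359 genes). Only these 200 genes were changed, whereas in the libraries themselves 29.9% of all genes tested rose and 32.5% fell. Recovery with that many genes changed was not tested, and neither was the choice between TMM and library size alone.

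The labels give replicate numbers 1 to 3 in every group. Deviations from the group means correlated between libraries of the same number with a median r of 0.245, and of different numbers with −0.138, over 13069 genes. The second value follows in large part from the first, because deviations within a group of 3 sum to 0. In 12 of the 26 comparisons all 3 same-numbered pairs exceeded 0.1, among them P+T/P in WT, P+T/T in *hsfa2* and WT and cdk8/WT at T. This pairing was seen in the data, and no label states it. The main fit did not use it, and the replicate number was a block only as an alternative.

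Values in every library are given for the 3 highest and 3 lowest log2FC of T/NHS in WT, the catalytic subunits, RPT2A, RPN1A, RPN10, AT5G23540 and RPN12A, members called in P+T/T or P/NHS in WT, in a mutant or in an interaction, and the 3 pairs with the largest change in share. Other members are given by range and count, and those named beyond this rule were singled out after their values were seen. Alternatives were DESeq2 1.42.0, DESeq2 size factors, library size alone, other filters, only the groups compared, the replicate number as a block, a 2-fold rule and leaving out each library.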

Additional observations from a re-analysis of the deposited data

How the results depend on the processing

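The direction of the response to heat depended on the scale, as given with its values above. On library size alone the number of the 38 genes that rose and fell was 1 and 24 for T/NHS in *hsfa2*, 2 and 9 in *cdk8* and 1 and 24 in WT, and 1 and 28, 1 and 13, and 1 and 18 for P+T/P, with median log2FC of −0.26, −0.10, −0.24, −0.34, −0.11 and −0.22. There the named genes that had risen for T/NHS in WT had log2FC values of −0.030 (PBA1), −0.037 (PBB1), −0.20 (PBB2), −0.52 (PBE1), −0.43 (AT3G26340), −0.24 (RPN1A), −0.30 (RPN10), −0.29 (AT5G23540), −0.18 (RPN12A), −0.29 (PBC1), −0.060 (PAA1), −0.42 (PAA2), −0.011 (PAD1) and −0.27 (PAD2), and RPT2A had −0.59. Also on library size alone, 23 genes were higher in *cdk8* than in WT at T, 11 at P+T and 1 at NHS, 1 was lower in *hsfa2* at P+T, and 0 fell for P+T/T in WT.

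With a 2-fold rule 1 gene rose in each of the 6 heat comparisons, and 1 in place of 2 fell for T/NHS in *hsfa2*. Testing only genes with a mean of at least 1 CPM left out AT4G15165, so that 0 genes fell in the heat comparisons, except 1 for T/NHS in *hsfa2*, and 1 was higher in *cdk8* than in WT at T. For P+T/T in WT the number that rose was 0 with no filter or with only the groups compared, and the number that fell was 0 with these and with DESeq2 size factors. In *hsfa2* 1 rose by DESeq2 and 0 fell with no filter or with only the groups compared, and in *cdk8* 1 in place of 2 fell with no filter, only the groups compared or DESeq2 size factors.

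With the replicate number as a block, 1 gene rose for P+T/T in *hsfa2* and 1 was higher in *cdk8* than in WT at T, RPT2A was called for P+T/P in WT, and PAD2 (0.27, adjusted p of edgeR 0.0340) and PBE1 (0.22, 0.0262) were called for T/NHS in *cdk8*, where not all same-numbered pairs exceeded 0.1. The block changed no other call of the 38 genes.

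When 1 library was left out, the number of genes that rose ranged over 33 to 35 for T/NHS in *hsfa2*, 30 to 35 in *cdk8* and 32 to 35 in WT, and over 29 to 32, 32 to 34 and 33 to 35 for P+T/P. For P+T/T it was 0 to 0 in WT, while the number that fell was 0 to 2 in *hsfa2*, 0 to 1 in *cdk8* and 0 to 1 in WT. For *cdk8* against WT at T it was 0 to 1 higher. The shares of pairs by raw counts changed by −12.9 (PBC1), 6.02 (PAA1) and 4.24 (PAD1) percentage points in WT.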
